A study of Mus musculus with 6 samples.

Results

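The genes described here encode tubulins, the building blocks of microtubules, and the kinesin and dynein motors that walk along them, measured by bulk RNA-Seq of mouse gastrocnemius/plantaris (GP) muscle. Members were taken by a rule on symbols that was set with earlier results of these data known. The rule took every listed gene whose symbol begins with Tuba, Tubb, Tubg or Kif and a digit, or with Dync or Dynl. This gave 74 members of 24421 genes listed, made up of 17 tubulins, 37 kinesins, 16 dynein chains and 4 others that only share the symbols (Kif1bp, a binding partner of kinesins, the pseudogenes Tubb2a-ps2 and Kif4-ps, and Kif16bos, an opposite-strand transcript). The study asked how adult skeletal muscle responds when Net39, a transmembrane protein of the nuclear envelope, is removed. It compared 3 mice labelled Ctrl (Net39 fl/fl, Cre-) with 3 labelled cKO (HSACreERT2;Net39 fl/fl), all B6C3F1 by the label, 5 months old and 3 months after tamoxifen. Both groups carried the floxed Net39 alleles and both received tamoxifen, so only the labelled cKO mice differed by the Cre transgene. That transgene is driven by the human skeletal actin promoter, which is active in muscle fibers, so the other cells of the muscle, such as those of vessels, nerve and connective tissue, would keep the floxed alleles unrecombined.

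Net39, listed under its older symbol Ppapdc3, went against the labels. It had 310, 321 and 217 counts in the Ctrl-labelled libraries 1, 2 and 3, and 5365, 4340 and 6080 counts in the cKO-labelled ones 1, 2 and 3. Its level was therefore low in all 3 Ctrl-labelled libraries and high in all 3 labelled cKO, with a log2 fold change of 4.22 (SE 0.17, adjusted p = 0.000161 by edgeR's quasi-likelihood test). The labels of the groups may be exchanged, which was not tested. Every direction given here would then turn relative to loss of Net39. The groups are called by their labels throughout, and each log2 fold change sets cKO-labelled over Ctrl-labelled libraries. Total counts were 33860001 to 38201728 in the Ctrl-labelled libraries and 39191239 to 48839910 in the cKO-labelled ones, so library sizes did not overlap. TMM scaling factors, which correct for a few abundant genes taking a large share of the counts, were 1.08 to 1.11 in the Ctrl-labelled libraries and 0.865 to 0.983 in the cKO-labelled ones. Scaling by total counts alone would shift the median over the 14180 genes tested from -0.015 to -0.27 (log2), and changes are given on the TMM scale.

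Microtubules are hollow polymers of alpha- and beta-tubulin pairs, nucleated by rings that contain gamma-tubulin. Mammals carry several alpha and beta genes, called isotypes, whose proteins are nearly alike in the folded body and differ mostly in the acidic tail at the carboxyl end. Enzymes add or remove glutamates and a terminal tyrosine on these tails, and motors and other proteins read the result. Kinesins mostly carry cargo toward the growing plus end, while cytoplasmic dynein, a complex of heavy, intermediate, light intermediate and light chains, moves the other way with its cofactor dynactin. In mature muscle fibers microtubules form a grid beneath the surface and around the nuclei, and kinesin-1 and dynein are known to position nuclei along the fiber.

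The coding sequences of the tails of Tuba4a and Tuba8, the alpha isotypes with the highest levels here, are shown because the last codon decides whether the terminal tyrosine is encoded in the gene. Each line holds the last 20 codons and the stop codon, 63 bases in a single exon, 5′ to 3′ on the coding strand, read from GRCm38 (mm10), with the last codon before the stop in capitals.
Tuba4a: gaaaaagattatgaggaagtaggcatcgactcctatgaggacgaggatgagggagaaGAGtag
Tuba8: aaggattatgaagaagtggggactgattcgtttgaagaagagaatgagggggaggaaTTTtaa
Tuba4a ends on a glutamate codon and Tuba8 on a phenylalanine codon, so neither encodes the terminal tyrosine. The stretches lie on chromosome 1 from 75215622 to 75215684 (minus strand) for Tuba4a and on chromosome 6 from 121226017 to 121226079 (plus) for Tuba8. Over the whole coding sequence the identity of Tuba8 to Tuba4a was 81.0%.

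The beta tails are shown to set Tubb4b, the beta isotype with the highest level, beside Tubb5, Tubb2a and Tubb2b. The frame is the same, and capitals mark bases that differ from the printed Tubb4b stretch, or have no base there to pair with, in a pairwise alignment.
Tubb4b: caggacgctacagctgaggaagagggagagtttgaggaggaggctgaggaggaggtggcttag
Tubb5: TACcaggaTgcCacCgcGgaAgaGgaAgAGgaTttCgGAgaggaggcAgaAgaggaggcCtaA
Tubb2a: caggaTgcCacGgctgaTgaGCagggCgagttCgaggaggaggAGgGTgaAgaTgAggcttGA
Tubb2b: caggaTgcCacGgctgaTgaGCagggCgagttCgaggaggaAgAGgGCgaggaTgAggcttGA
Tubb2a and Tubb2b each differed from Tubb4b at 17 of the 63 bases. The coding sequence of Tubb5 is 1335 bases long against 1338 for Tubb4b, so its stretch starts a codon earlier and the capitals of that codon have no Tubb4b base beside them. Over the whole coding sequence the identity to Tubb4b was 82.2% for Tubb5, 83.6% for Tubb2a and 83.5% for Tubb2b. The stretches lie on the minus strand of chromosome 2 from 25222308 to 25222370 (Tubb4b), chromosome 17 from 35834982 to 35835044 (Tubb5) and chromosome 13 from 34074468 to 34074530 (Tubb2a) and from 34127471 to 34127533 (Tubb2b). Shared sequence limits how reads are assigned among close copies and, for Tuba4a and Kif3c, between a gene and those that overlap it. Of the 75-base windows of the transcript, 78.3% in Tuba1b, 70.4% in Tuba1a, 56.7% in Tuba1c, 47.2% in Tuba4a, 43.2% in Tubb2a, 42.8% in Kif3c, 40.9% in Tubb4b and 32.2% in Tubb2b also occurred in the transcripts of another gene, pseudogenes included. The share was 0% for Tubb5, Tubb6, Kif1c, Dynll1 and Dynll2, so values for the 8 genes named before are uncertain in a way that those of the latter 5 are not.

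Of the 74 members, 56 had enough counts to be tested. Among them 17 passed an adjusted p of 0.05, 11 higher in the Ctrl-labelled libraries (the libraries with low Net39) and 6 higher in the cKO-labelled ones. Over all 14180 genes tested, 24.4% passed, 11.8% higher in the Ctrl-labelled libraries and 12.6% higher in the cKO-labelled ones, so members passed at 30.4% against that background. With a fold change over 2 as well, 3 members (Tubb6, Dynll1 and Kif11) were higher in the Ctrl-labelled libraries, where 3.92% of all genes were. By the same rule edgeR called 0 members higher in the cKO-labelled libraries (2.13% of all genes), while DESeq2 called 1, and 25 of the 56 members had an unadjusted p under 0.05 at any fold, against 38.8% of all genes. The groups did not overlap in 32 of the 56 members, against 43.9% of all genes. The median log2 fold change over the tested members was -0.21. Scaling by total counts alone gave 22 members higher in the Ctrl-labelled libraries and 1 in the cKO-labelled ones, where 28.7% and 4.75% of all genes were called. When each library was left out in turn, Tubb6, Dynll1, Tubb5 and Kif1c kept their calls in all 6 fits, Dynll2 lost its call in 1 (without cKO 3), and the other 12 called members lost theirs in 3 to 6 of the 6. In bulk tissue, fewer cells of a type and less RNA per cell cannot be told apart, and this holds for every value given here.

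**Figure D1:**
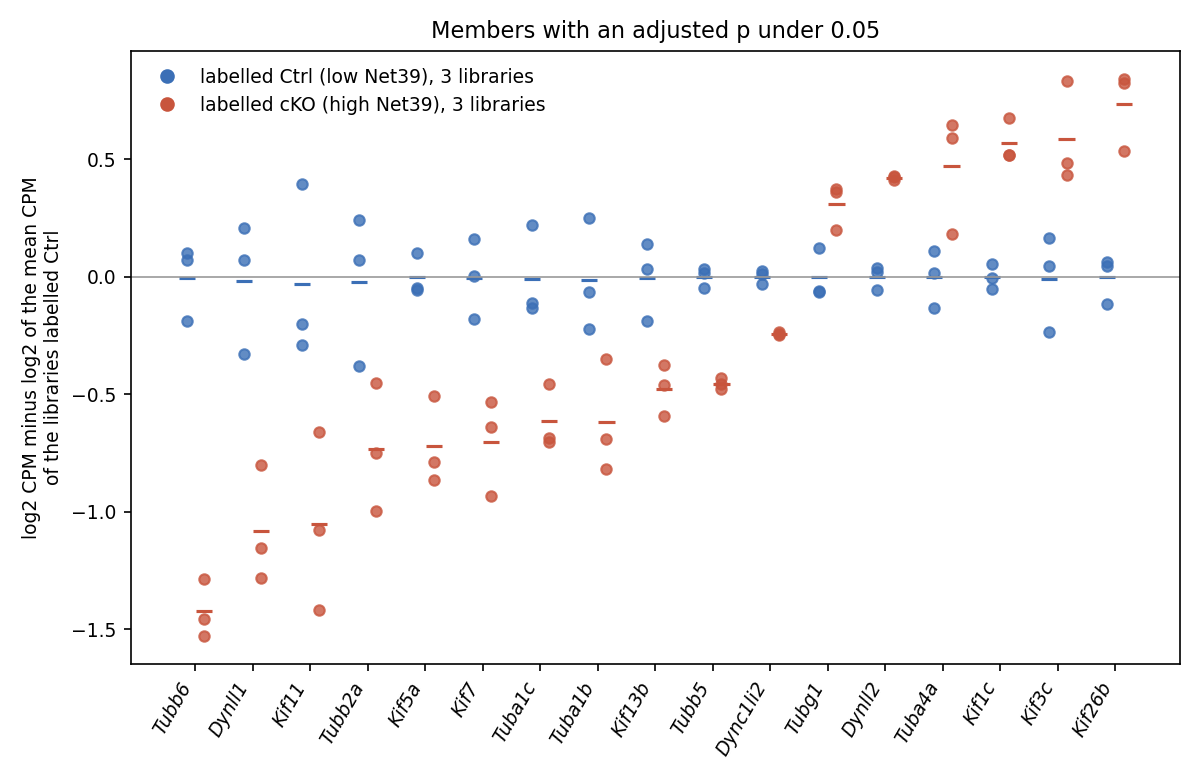
Each point is 1 library, as its log2 CPM minus the log2 of the mean CPM of the 3 Ctrl-labelled libraries (blue, labelled Ctrl; red, labelled cKO; short lines, group means), for the 17 members with an adjusted p under 0.05, ordered by the change. The 11 genes on the left lie lower in every cKO-labelled library and the 6 on the right higher, from Tubb6 (log2 fold change -1.42) to Kif26b (0.74).

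Most tubulin RNA in these muscles came from a few isotypes, as seen once counts are scaled by exon length (RPKM, reads scaled to merged exon length and library size). Tuba4a had the highest level of all members, 247 RPKM on average, followed by the kinesin Kif1c (182 RPKM) and the dynein light chain Dynll2 (140 RPKM). Tubb4b (109 RPKM) and Tuba8 (107 RPKM) came next. Scaling by the longest transcript in place of merged exons kept the order of these 5 means, with Tubb4b at 142 RPKM. All other tubulins averaged below 20 RPKM over the 6 libraries, led by Tubb5 at 17.5 RPKM and Tuba1a at 17.2 RPKM. With the longest transcript Tubb5 and Tubb6 were at 22.01 and 20.7 RPKM, both above Tuba1a. Tuba3a and Tuba3b, genes known for expression in testis, had 0 counts in every library, and Tubb1, known from platelets, had at most 6 counts.

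**Figure D2:**
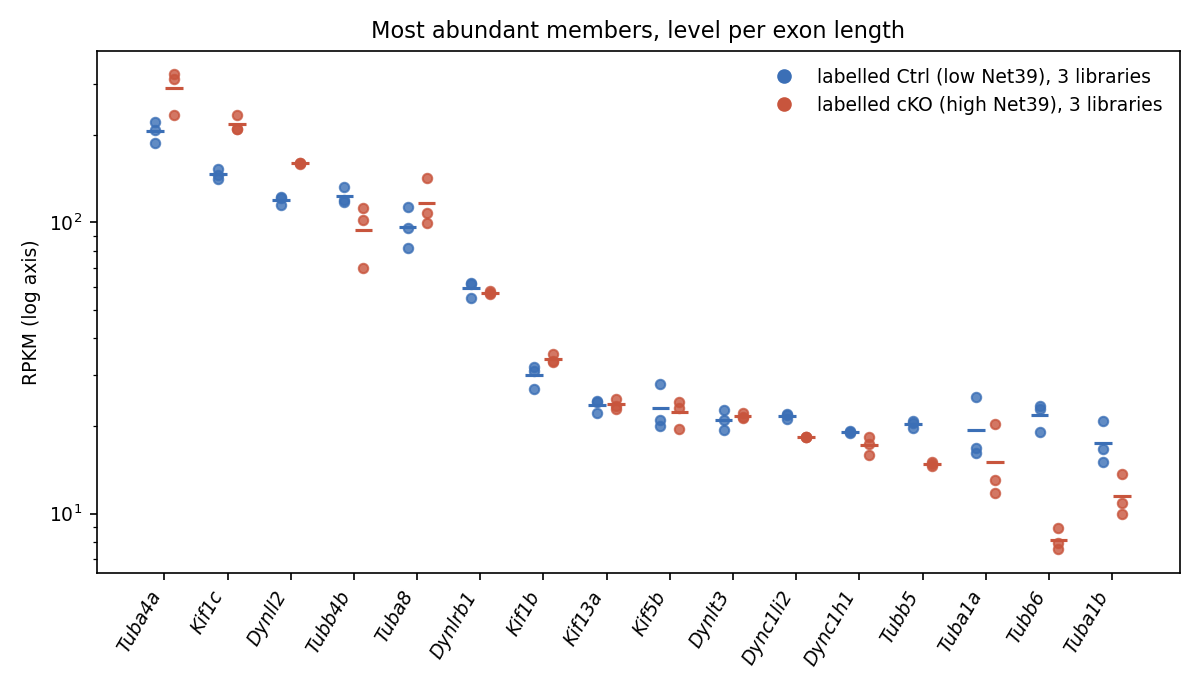
RPKM (log axis) in each library for the 16 members with the highest mean level per exon length, with blue for labelled Ctrl, red for labelled cKO and short lines for group means. Tuba4a, Kif1c, Dynll2, Tubb4b and Tuba8 stand above 70 RPKM in nearly every library, while Tubb6 has the widest gap between the groups.

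Among the 5 alpha tubulins tested, Tuba4a was higher in the cKO-labelled libraries, Tuba1b and Tuba1c were lower, and Tuba1a and Tuba8 did not pass the test. Tuba4a had 771, 823 and 694 CPM (counts scaled to library size, with TMM factors) in the Ctrl-labelled libraries and 1193, 864 and 1148 CPM in the cKO-labelled ones. The groups did not overlap, although cKO 2 lay close to Ctrl 2, and the log2 fold change was 0.49 (SE 0.15, adjusted p = 0.0490 by edgeR). In Tuba4a, 37.3% of exon bases overlap Stk16, and whether strand was used in counting is not stated. Tuba1b had 28.1, 31.3 and 39.0 CPM against 20.3, 25.7 and 18.6 CPM, and Tuba1c had 6.41, 6.49 and 8.18 CPM against 4.32, 5.12 and 4.36 CPM. Both were lower in every cKO-labelled library, by 0.61 and 0.61 on the log2 scale (SE 0.16 and 0.15, adjusted p = 0.0346 and 0.0250). Tuba1a, the isotype best known from developing neurons, pointed the same way without passing the test (log2 fold change -0.37, SE 0.25, adjusted p = 0.312), and its groups overlapped. Tuba8, known from skeletal muscle, heart and testis, ranged from 185 to 256 CPM in the Ctrl-labelled libraries and from 225 to 321 CPM in the cKO-labelled ones (log2 fold change 0.26, SE 0.17, adjusted p = 0.291).

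Read as shares of the summed alpha-tubulin RPKM, Tuba4a made up 61.5%, 59.9% and 58.9% in the Ctrl-labelled libraries and 65.8%, 63.3% and 70.3% in the cKO-labelled ones. Every cKO-labelled library thus had a larger Tuba4a share. The share of Tuba1b was 5.15% ± 1.19 (SD, n = 3) against 2.73% ± 0.86, again without overlap, and that of Tuba8 was 28.1% ± 2.43 against 26.8% ± 2.30, with overlap. Tuba4a and Tuba8, whose tails are printed above, together made up most of the alpha-tubulin RNA in all 6 libraries. The summed RPKM of the alpha genes was 343 ± 26.4 against 433 ± 60.9 (SD, n = 3), and its groups overlapped.

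All 7 tested beta tubulins had a log2 fold change below 0, and 3 of them passed the test (42.9%, against 24.4% of all genes called and 11.8% called higher in the Ctrl-labelled libraries). Tubb6, an isotype found in many tissues and known to rise in regenerating and dystrophic muscle, had the largest change in size of the 56 tested members. It had 56.9, 55.7 and 46.5 CPM in the Ctrl-labelled libraries and 18.3, 19.3 and 21.7 CPM in the cKO-labelled ones. The gap between the groups was many times the spread within them, with a 2.68-fold higher level in the Ctrl-labelled libraries (log2 fold change -1.42, SE 0.11, adjusted p = 0.000796). Tubb5, a widely expressed isotype, had 68.1, 65.3 and 69.0 CPM against 48.4, 49.1 and 50.01 CPM. The replicates of Tubb5 were tight, and the change was smaller (log2 fold change -0.46, SE 0.06, adjusted p = 0.00497). Tubb2a, best known from neurons, had 19.0, 13.9 and 21.3 CPM against 9.03, 13.2 and 10.7 CPM. Here Ctrl 2 lay just above cKO 2, and the log2 fold change was -0.72 (SE 0.19, adjusted p = 0.0364).

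Tubb4b, the isotype with the highest level, had 276, 249 and 246 CPM in the Ctrl-labelled libraries and 235, 145 and 212 CPM in the cKO-labelled ones. The groups did not overlap, but cKO 2 was far below the other libraries of its group and the test was not passed (log2 fold change -0.38, SE 0.17, adjusted p = 0.149). Tubb2b had 2.81, 2.27 and 5.80 CPM against 1.83, 2.18 and 1.25 CPM (log2 fold change -1.05, SE 0.39, adjusted p = 0.0929). Tubb4a and the neuronal Tubb3 were at 2.07 and 0.233 CPM on average, with log2 fold changes of -0.40 and -0.21 (SE 0.24 and 0.66). The summed beta-tubulin RPKM was 179 ± 9.47 in the Ctrl-labelled libraries and 126 ± 20.8 in the cKO-labelled ones (SD, n = 3), without overlap. Within that sum the share of Tubb6 was 12.3%, 13.3% and 10.9% against 5.32%, 7.74% and 6.67%, while the shares of Tubb4b, Tubb5 and Tubb2a overlapped between the groups.

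**Figure D3:**
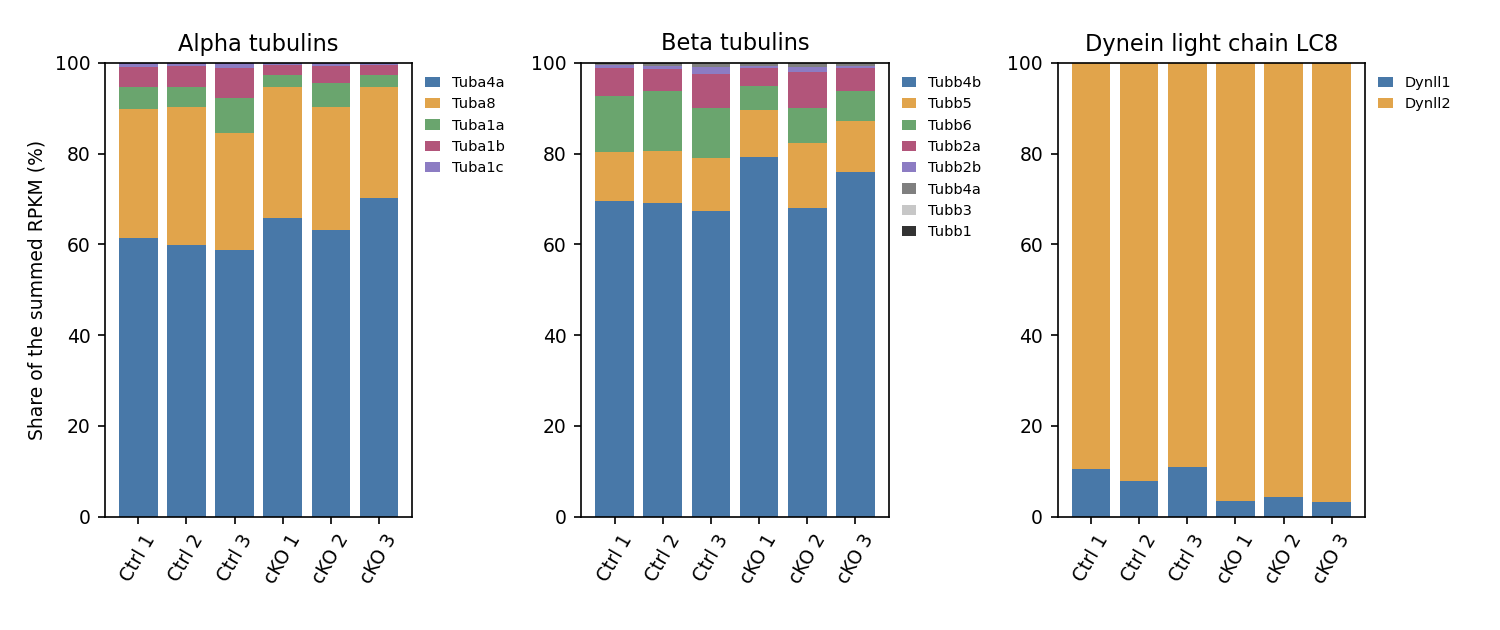
Stacked bars give, for each library, the percentage of the summed RPKM of a family taken by each gene, for alpha tubulins, beta tubulins and the dynein light chain genes Dynll1 and Dynll2. In the cKO-labelled libraries the share of Tuba4a is larger, and those of Tubb6 and Dynll1 are smaller, than in every Ctrl-labelled library.

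The gamma tubulins, which seed new microtubules, pointed the other way. Tubg1, the widely used gene, had 23.7, 26.9 and 23.6 CPM in the Ctrl-labelled libraries and 32.0, 31.7 and 28.4 CPM in the cKO-labelled ones (log2 fold change 0.31, SE 0.09, adjusted p = 0.0426). Its groups were close but did not overlap, and the change was 1.24-fold. The call of Tubg1 was lost in all 6 fits without 1 library, and with total counts in place of TMM (adjusted p = 0.680 by edgeR). Tubg2 was scarce, at 0.817 to 1.45 CPM against 1.35 to 3.05 CPM, its groups overlapped, and its log2 fold change of 0.99 (SE 0.36, adjusted p = 0.0834) did not pass the test. Tubg1 and Tubg2 share 7.64% and 7.86% of their 75-base windows with another gene.

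Kinesin RNA was dominated by Kif1c, a kinesin-3 motor known to carry vesicles and mRNA. It had 1062, 1107 and 1029 CPM in the Ctrl-labelled libraries and 1703, 1528 and 1525 CPM in the cKO-labelled ones. All cKO-labelled libraries were well above all labelled Ctrl, by 1.49-fold (log2 fold change 0.57, SE 0.10, adjusted p = 0.00868). Kif1c alone made up 55.7% ± 2.16 of the summed kinesin RPKM in the Ctrl-labelled libraries and 64.0% ± 1.55 in the cKO-labelled ones (SD, n = 3), without overlap. The summed kinesin RPKM was 263 ± 1.86 against 340 ± 13.8, also without overlap.

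Of the next 5 kinesins by CPM, Kif3c passed the test and Kif1b, Kif13a, Kif5b and Kif16b did not. Kif1b, a kinesin-3 motor of mitochondria and synaptic vesicle precursors, had 544, 471 and 563 CPM against 582, 624 and 588 CPM (log2 fold change 0.18, SE 0.10, adjusted p = 0.215). Kif5b, the kinesin-1 heavy chain found in most cells and known to move nuclei in muscle fibers, had 167, 160 and 223 CPM against 155, 193 and 185 CPM. Its groups overlapped and the log2 fold change was -0.05 (SE 0.15, adjusted p = 0.849). Kif13a and Kif16b, kinesin-3 motors of endosomes, had log2 fold changes of 0.01 and 0.06 (SE 0.08 each). Kif3c, a kinesin-2 motor, had 49.4, 65.1 and 60 CPM against 104, 78.6 and 81.3 CPM (log2 fold change 0.59, SE 0.14, adjusted p = 0.0252). However, 40.7% of the exon bases of Kif3c overlap 1110002L01Rik and Gm48512, so part of its counts may belong to them.

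Among scarcer kinesins, Kif13b, a kinesin-3 motor that binds membrane-linked scaffold proteins, had 22, 23.7 and 18.8 CPM in the Ctrl-labelled libraries and 15.6, 16.5 and 14.3 CPM in the cKO-labelled ones (log2 fold change -0.48, SE 0.11, adjusted p = 0.0229). Kif5a, the neuronal kinesin-1 heavy chain, had 1.79, 1.98 and 1.78 CPM against 1.3, 1.01 and 1.07 CPM (log2 fold change -0.72, SE 0.19, adjusted p = 0.0344). Kif7, a kinesin of Hedgehog signaling in the primary cilium, had 2.35, 1.86 and 2.11 CPM against 1.10, 1.35 and 1.45 CPM (log2 fold change -0.69, SE 0.20, adjusted p = 0.0427). All 3 were lower in every cKO-labelled library. Kif26b, an atypical kinesin linked to Wnt signaling, was higher, with 1.07, 1.09 and 0.957 CPM against 1.86, 1.51 and 1.84 CPM (log2 fold change 0.74, SE 0.19, adjusted p = 0.0325). Of the exon bases of Kif7, 20.3% overlap 9330171B17Rik and Ticrr. In all, 6 of the 21 tested kinesins outside the list of cell-division kinesins passed the test (28.6%, against 24.4% of all genes). Another 5 had too few counts to be tested, Kif12 and Kif2b with 0 in every library.

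Of 11 kinesins listed for a role in spindle assembly and cell division, 7 were tested and 1 passed (14.3%, against 24.4% of all genes). Kif11, the spindle motor that pushes the poles apart, had 1.02, 1.09 and 1.64 CPM against 0.790, 0.467 and 0.591 CPM (log2 fold change -1.02, SE 0.30, adjusted p = 0.0489). Kif18a, which limits chromosome movement on the spindle, was lower by a like amount in every cKO-labelled library but missed the threshold (log2 fold change -0.99, SE 0.31, adjusted p = 0.0573). The 7 tested genes spanned log2 fold changes of -1.02 to 0.32, with levels of only 0.334 to 1.37 CPM. Markers of proliferating cells were as scarce: the summed CPM of 10 such genes was 2.70 to 6.23 in the Ctrl-labelled libraries and 2.17 to 4.59 in the cKO-labelled ones. Of the 6 of these that could be tested, edgeR called 0, and 1 had an unadjusted p under 0.05.

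**Figure D4:**
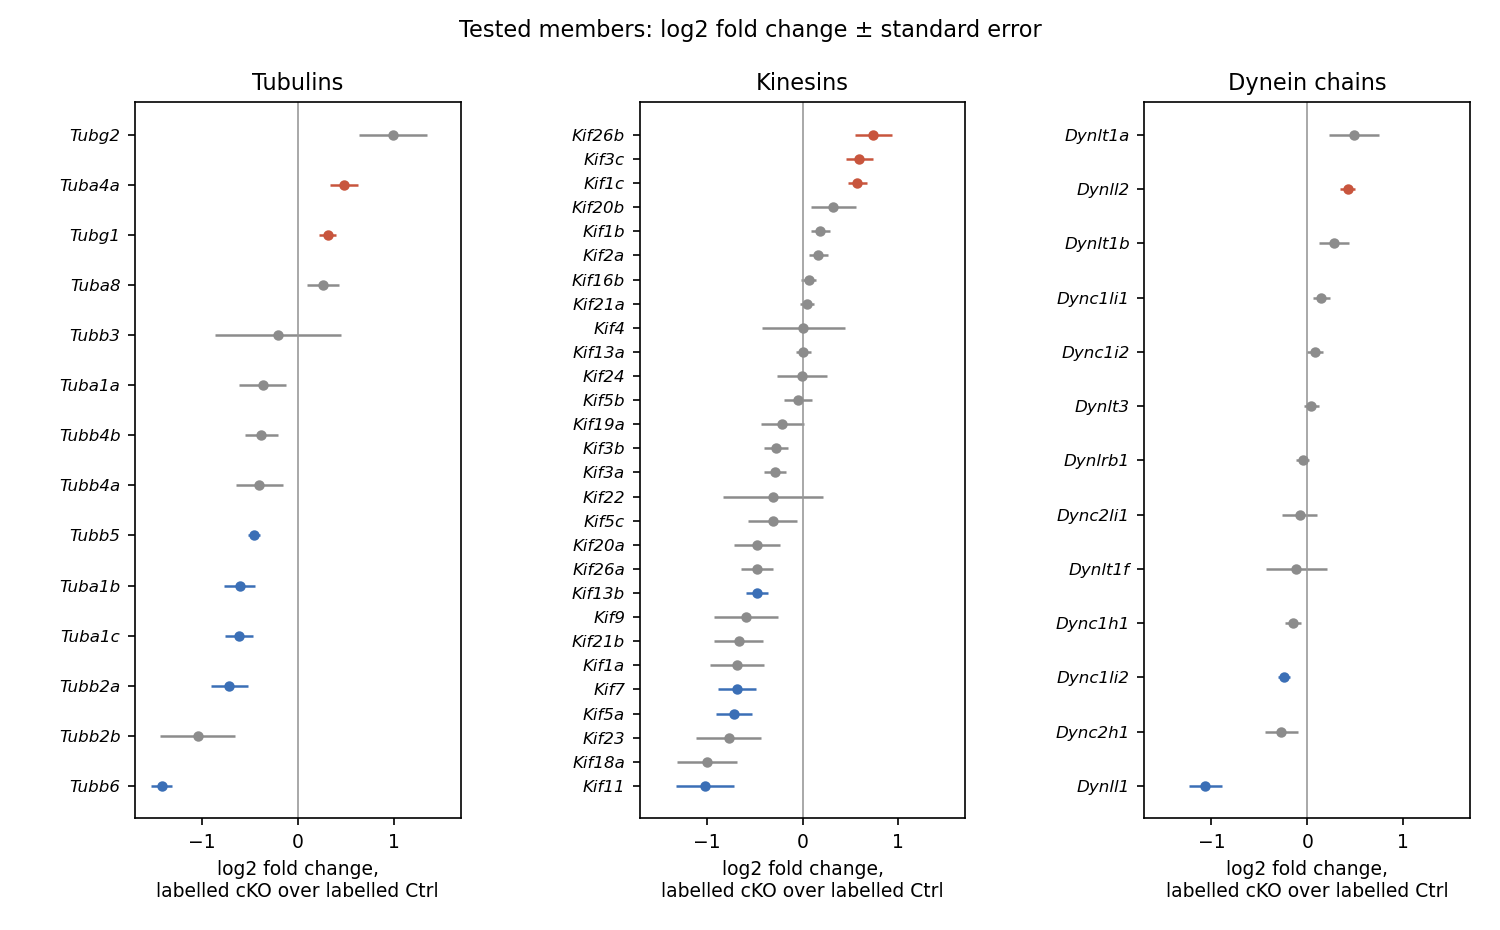
Log2 fold change with its standard error for each tested tubulin, kinesin and dynein chain, ordered by size (blue, adjusted p under 0.05 and higher in the Ctrl-labelled libraries; red, higher in the cKO-labelled ones; gray, not passing the test). Points right of 0 are higher in the cKO-labelled libraries; all 7 beta tubulins (Tubb) lie left of 0.

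For dynein, 1 of the 4 tested chains of cytoplasmic dynein-1 passed the test (25%, against 24.4% of all genes), and the 2 genes of the light chain LC8 passed in opposite directions. LC8 is a small dimeric hub protein that binds dynein and many other partners, including nitric oxide synthase, and is encoded by Dynll1 and Dynll2. Dynll1 had 52.9, 40.0 and 58.1 CPM in the Ctrl-labelled libraries and 22.6, 28.9 and 20.7 CPM in the cKO-labelled ones (log2 fold change -1.07, SE 0.17, adjusted p = 0.00745). Dynll2 had 314, 335 and 331 CPM against 435, 438 and 439 CPM (log2 fold change 0.42, SE 0.08, adjusted p = 0.0105), a call that was lost with total counts in place of TMM (adjusted p = 0.161) and without cKO 3 (adjusted p = 0.0501). Dynll1 was thus lower, and Dynll2 higher, in every cKO-labelled library. Dynll2 counts per Dynll1 count were 5.93, 8.37 and 5.70 in the Ctrl-labelled libraries and 19.3, 15.2 and 21.2 in the cKO-labelled ones. The coding sequences of the genes are both 270 bases long with the stop codon and differ at 51 bases (81.1% identity), and neither shares a 75-base window with another gene. As a share of the summed LC8 RPKM, Dynll1 made up 9.78% ± 1.77 in the Ctrl-labelled libraries and 3.72% ± 0.63 in the cKO-labelled ones (SD, n = 3), without overlap, so Dynll2 was the main gene in both groups. The share depends on the length used, and with the longest transcript it was 14.5% and 5.71%, again without overlap.

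Among the chains that build the cytoplasmic dynein-1 motor, Dync1li2, a light intermediate chain that grips cargo adaptors, had 128, 132 and 133 CPM in the Ctrl-labelled libraries and 110, 111 and 110 CPM in the cKO-labelled ones. The change was small and the replicates close (log2 fold change -0.24, SE 0.07, adjusted p = 0.0368). Dync1h1, the heavy chain that holds the motor domain, had 301, 299 and 297 CPM against 271, 250 and 287 CPM without passing the test (log2 fold change -0.15, SE 0.08, adjusted p = 0.222). Dync1li1 and the intermediate chain Dync1i2 had log2 fold changes of 0.15 and 0.08 (SE 0.09 and 0.08), and the neuronal Dync1i1 had at most 9 counts and was not tested. Other light chains, Dynlrb1 (roadblock) and Dynlt3 (Tctex), had log2 fold changes of -0.05 and 0.04 (SE 0.07 and 0.08). The mouse copies of Dynlt1 (Dynlt1a, Dynlt1b, Dynlt1f and Dynlt1c, the last at 0 counts in every library) share most of their sequence and gave 0 calls in 3 tested copies by edgeR, with 0 at an unadjusted p under 0.05. Dync2h1 and Dync2li1, chains of the ciliary dynein-2, were at 2.86 and 2.83 CPM with log2 fold changes of -0.27 and -0.08 (SE 0.17 and 0.18). Kif1bp, outside these classes, had a log2 fold change of -0.21 (SE 0.08, adjusted p = 0.107).

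The stretches before the starts of Dynll1, Tubb5 and Kif1c are shown because these genes kept their calls under every alternative tried and moved in different directions. Tubb6 also kept its call, and its stretch is not reported here. Each is the 250 bases before the start in RefSeq, on GRCm38.p6, 5′ to 3′ on the gene's strand, with matches to CCAAT on either strand in capitals.
Dynll1: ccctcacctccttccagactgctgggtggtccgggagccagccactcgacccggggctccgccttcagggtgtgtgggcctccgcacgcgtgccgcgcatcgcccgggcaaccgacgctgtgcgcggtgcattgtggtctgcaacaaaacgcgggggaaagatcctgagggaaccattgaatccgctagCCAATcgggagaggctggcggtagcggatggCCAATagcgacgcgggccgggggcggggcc
Tubb5: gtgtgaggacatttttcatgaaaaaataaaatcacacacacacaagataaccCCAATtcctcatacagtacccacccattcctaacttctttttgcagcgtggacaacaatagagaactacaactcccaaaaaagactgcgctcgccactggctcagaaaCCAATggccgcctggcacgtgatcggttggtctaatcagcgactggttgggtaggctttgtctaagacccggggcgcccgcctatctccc
Kif1c: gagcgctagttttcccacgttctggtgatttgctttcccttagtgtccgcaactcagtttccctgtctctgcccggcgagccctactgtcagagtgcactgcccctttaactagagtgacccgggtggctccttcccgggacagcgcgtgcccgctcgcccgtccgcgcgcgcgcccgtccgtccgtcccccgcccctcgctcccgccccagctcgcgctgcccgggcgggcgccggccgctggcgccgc
The positions are chr5:115300991-115301240 (minus), chr17:35838302-35838551 (minus) and chr11:70700298-70700547 (plus). CCAAT, the box bound by NF-Y, occurred in 25 of the 57 members with such a stretch, where a match in any stretch of a member counted. Counted by single stretches, it occurred in 33.8% of 32851 stretches of all genes. Of the 11 called members with a stretch it occurred in 5 (Dynll1, Kif11, Kif26b, Tuba1c and Tubb5). TATAAA occurred in Tubb2a and CAGCTG in Tuba1b among called members, against 12.4% and 13% of all stretches. The MEF2 core CTANNNNTAG occurred in 0 called members and 3.2% of all stretches. These are matches of letters in the window and nothing more.

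Genes that act with the motors and filaments were followed in 8 lists of 151 entries, of which 133 were tested. In them 36 passed the test, 19 higher in the Ctrl-labelled libraries and 17 higher in the cKO-labelled ones, against 11.8% and 12.6% of all genes, with a median log2 fold change of -0.044 against -0.015 for all genes. Of the 25 genes named from these lists, 12 kept their calls in all 6 fits that left out a library.

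The list of tubulin-modifying enzymes holds those of the tails and Atat1, Hdac6 and Sirt2, which add or remove an acetyl group on a lysine of the alpha-tubulin body. Of 17 tested, 3 were higher in the Ctrl-labelled libraries and 2 in the cKO-labelled ones (29.4% called, against 24.4% of all genes). Vash1 and Vash2, the vasohibins that cut off the terminal tyrosine, were both lower in the cKO-labelled libraries. Vash1 had 29.6, 29.1 and 29.5 CPM against 15.8, 17.7 and 17.1 CPM (log2 fold change -0.80, SE 0.08, adjusted p = 0.00183). Vash2 had 6.56, 6.59 and 11.1 CPM against 2.34, 1.61 and 3.00 CPM (log2 fold change -1.79, SE 0.30, adjusted p = 0.00777). Their groups lay far apart, and so did those of Ttll7, a glutamylase that acts mainly on beta-tubulin tails, in the other direction. Ttll7 had 77.5, 98.3 and 126 CPM against 294, 303 and 278 CPM (log2 fold change 1.53, SE 0.17, adjusted p = 0.00280). Ttll1, the catalytic subunit of another glutamylase, had a log2 fold change of -0.54 (SE 0.11, adjusted p = 0.0139). Its call was lost in 2 of the 6 fits without 1 library.

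Proteins that bind along microtubules or at their plus ends had 12 calls among 39 tested (30.8%, against 24.4% of all genes), 10 of them higher in the Ctrl-labelled libraries, the direction of 11.8% of all genes. Tppp3, which bundles microtubules and is known from tendon and connective tissue, had 141, 103 and 95.5 CPM against 26.5, 34.3 and 31.1 CPM (log2 fold change -1.89, SE 0.17, adjusted p = 0.00151). Map1a, a microtubule-binding protein best known from neurons, had 53.7, 70.7 and 65.4 CPM against 29.7, 34.9 and 27.5 CPM (log2 fold change -1.04, SE 0.13, adjusted p = 0.00365). Mid2, a ubiquitin ligase on microtubules, and Mast2, a microtubule-associated kinase, were lower in the cKO-labelled libraries by 0.68 and 0.64 on the log2 scale (SE 0.12 each, adjusted p = 0.0101 and 0.0112).

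On the dynein side, 2 of 12 dynactin genes passed (16.7%, against 24.4% of all genes), both higher in the cKO-labelled libraries, the direction of 12.6% of all genes. These were Capza2, an actin-capping subunit that also sits in dynactin, at 0.79 (SE 0.11, adjusted p = 0.00519), and Dctn6, a subunit of the pointed end, at 0.31 (SE 0.07, adjusted p = 0.0244). Dynein adaptors and regulators had 5 calls of 15 (33.3%), 4 of them higher in the cKO-labelled libraries. Hook1, an adaptor of endosomes, had 12, 12.8 and 18.3 CPM against 32.5, 31.7 and 30.0 CPM (log2 fold change 1.13, SE 0.16, adjusted p = 0.00526). Hook3 and Ndel1, a partner of Lis1, followed at 0.38 and 0.33 (SE 0.08 each, adjusted p = 0.0165 and 0.0261). Mapk8ip3, an adaptor for kinesin and dynein alike, was lower at -0.28 (SE 0.07, adjusted p = 0.0281). With total counts in place of TMM the calls of Dctn6, Ndel1 and Hook3 were lost, at log2 fold changes of 0.049, 0.073 and 0.13. Without 1 library at a time, Dctn6, Ndel1, Hook3 and Mapk8ip3 each lost the call in 4 of 6 fits.

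Kinesin light chains and kinesin partners had 5 calls of 17 (29.4%, against 24.4% of all genes). Syne1 (nesprin-1), which links nuclei to the cytoskeleton and motors, had 103, 97.8 and 120 CPM against 186, 146 and 156 CPM (log2 fold change 0.61, SE 0.12, adjusted p = 0.0140). Klc4, a kinesin-1 light chain, and Arl8a, a lysosomal GTPase that recruits kinesin-1, were lower in the cKO-labelled libraries, each at -0.32 (SE 0.08 each, adjusted p = 0.0256 each). Rhot1, the mitochondrial adaptor Miro1, was at 0.24 (SE 0.06, adjusted p = 0.0313), but at -0.01 with total counts in place of TMM, and its call was lost in all 6 fits without 1 library. Of 9 genes for tubulin folding and rarer tubulins, Tubd1 (delta-tubulin) and the cofactor Tbcd were higher in the cKO-labelled libraries at 0.52 and 0.45 (SE 0.10 and 0.09, adjusted p = 0.0108 and 0.0147), and the cofactor Tbcc was lower at -0.43 (SE 0.10, adjusted p = 0.0243). With total counts Tubd1 and Tbcd lost their calls, at 0.26 and 0.20. Klc4, Arl8a and Tbcc each lost the call in 4 of the 6 fits without 1 library, and Syne1 and Tbcd in 2.

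Among 15 genes of nucleation and organizing centers, Mzt1, a small subunit of the gamma-tubulin ring, was higher in the cKO-labelled libraries at 0.68 (SE 0.13, adjusted p = 0.0118). Akap6, which holds organizing-center proteins at the envelope of muscle nuclei, had 127, 106 and 139 CPM against 70.1, 96.8 and 76.1 CPM (log2 fold change -0.61, SE 0.15, adjusted p = 0.0268). Nin (ninein), an anchor of microtubule minus ends, was at -0.49 (SE 0.13, adjusted p = 0.0342). Without 1 library at a time, Akap6 lost the call in 4 of 6 fits and Nin in 5. Of 9 severing genes 1 passed (11.1%, against 24.4% of all genes), Spast (spastin), at 0.63 (SE 0.09, adjusted p = 0.00547).

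**Figure D5:**
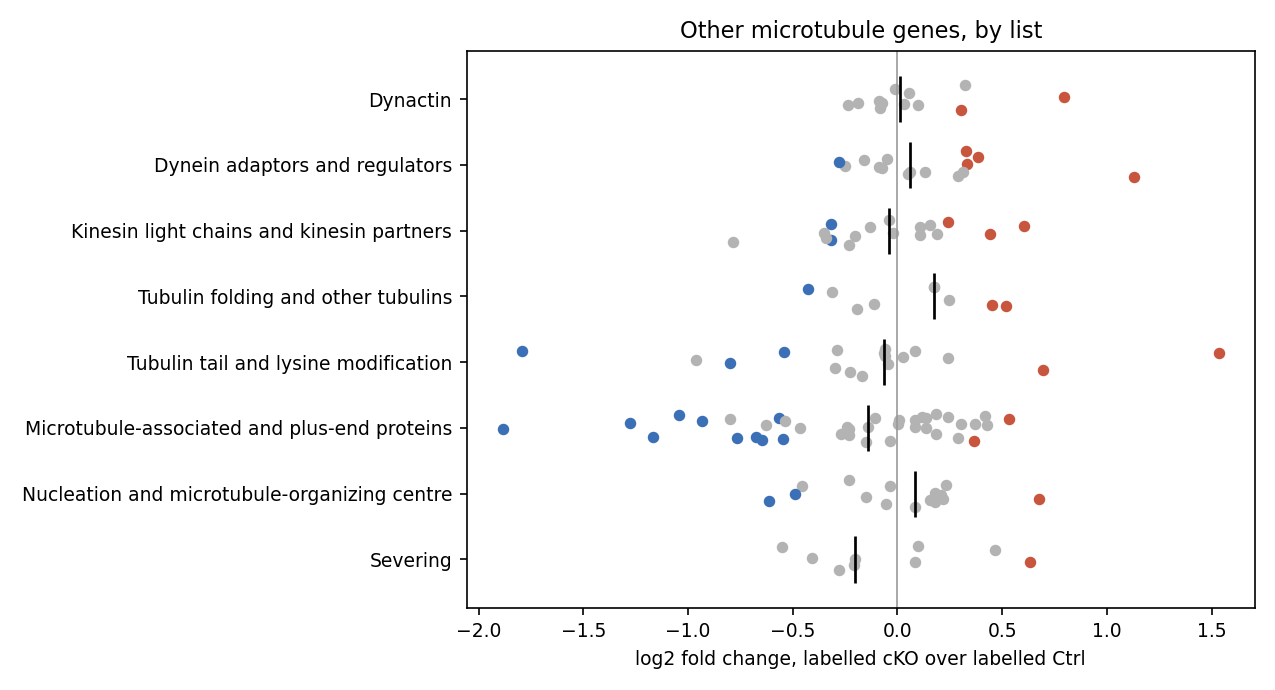
Each point is a tested gene of 1 of the 8 lists, at its log2 fold change (blue, adjusted p under 0.05 and higher in the Ctrl-labelled libraries; red, higher in the cKO-labelled ones; gray, not passing the test; black line, median of the list; vertical scatter is for display). The calls spread to both sides in most lists, from Tppp3 at -1.89 to Ttll7 at 1.53.

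Markers of some other cell types and fiber types differed between the same groups. The summed CPM of 8 immune markers was 221 to 301 in the Ctrl-labelled libraries and 93.7 to 139 in the cKO-labelled ones. Of these 8, 6 were called higher in the Ctrl-labelled libraries (75%, against 11.8% of all genes). The 4 listed markers of regenerating fibers summed to 235 to 307 CPM against 102 to 152 CPM, with Myh3, Myog and Ncam1 called higher in the Ctrl-labelled libraries and Myh8 in the cKO-labelled ones. Slow-fiber genes summed to 7888 to 13251 CPM against 389 to 3443 CPM (3 of 7 called, 42.9%, all higher in the Ctrl-labelled libraries). Fast type IIb genes summed to 40218 to 72258 CPM against 116286 to 149574 CPM. All 6 were called higher in the cKO-labelled libraries, the direction of 12.6% of all genes.

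Schwann cell markers summed to 156 to 227 CPM against 89.4 to 145 CPM (1 of 6 called, 16.7%, against 24.4% of all genes). The defining neuronal markers Snap25, Syt1, Rbfox3, Nefl and Nefm were at or near 0 in every library. The neuronal list summed to 4.73 to 6.38 CPM against 2.66 to 4.42 CPM, nearly all of it Stmn2, its 1 tested gene and lower in the cKO-labelled libraries (adjusted p = 0.0470). The endothelial sums were 390 to 403 against 350 to 389 CPM (0 of 6 called by edgeR, 1 at an unadjusted p under 0.05). The fibro-adipogenic sums were 1172 to 1381 against 834 to 1383 CPM (2 of 7 called, 28.6%, against 24.4% of all genes). Satellite cell markers summed to 11.2 to 12.4 against 13.2 to 18.1 CPM (0 of 4 called by edgeR, 1 at an unadjusted p under 0.05). The 6 muscle fiber genes summed to 81634 to 105850 against 135192 to 181956 CPM. Of these, 3 were called (50%), all higher in the cKO-labelled libraries, the direction of 12.6% of all genes. Most of the gap was Myh4, also in the type IIb list, at 25521 ± 10635 against 70116 ± 11637 CPM (SD, n = 3), while Acta1 overlapped between the groups (adjusted p = 0.474) and Des had a log2 fold change of -0.05. The part of these cell and fiber types in the values of the tubulins and motors was not tested.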

How the data were processed

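RNA-Seq libraries (KAPA mRNA HyperPrep) of GP muscle were made from 3 mice labelled Ctrl and 3 labelled cKO. Per the labels and the study's methods, the authors checked reads with FastQC 0.11.8, used Trimmomatic 0.39 for trimming and HISAT2 2.1.0 for alignment to mm10, and counted them with featureCounts 1.6.2. The deposited values are raw counts per gene. The annotation and the strand setting are not given in the sources used here.

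The test was edgeR 4.0.16 in R 4.3.3 (TMM, filterByExpr, estimateDisp, glmQLFit and glmQLFTest, Benjamini-Hochberg adjustment over 14180 genes), with SE derived from the F statistic. The study used DESeq and a fold over 2, so DESeq2 1.42.0 was an alternative. CPM used TMM factors and RPKM the merged exons of GENCODE M21 on GRCm38, which matched all 74 members by symbol. Single values had an exact two-sided permutation test, whose smallest p is 0.1 for 3 against 3, so none is printed. Differences between shares and between levels of 2 genes are descriptions.

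Each mouse was 1 sample. Depth was 33860001 to 48839910 counts. The members and the lists were chosen with earlier results of these data known. Named are all tubulins and dynein chains tested, kinesins passing the test or among the 6 most abundant, and up to 4 genes with the smallest p of each list. Kif18a was named after its values were seen. Both fits were checked on simulated counts. Alternatives were other scalings, filters and tests, the mouse number as a block and each library left out. Some tail sequences are not reported here.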

Additional observations from a re-analysis of the deposited data

How the results depend on the processing

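Of the 17 called members, 4 (Tubb6, Dynll1, Tubb5 and Kif1c) kept the call under all 13 alternatives, and 0 changed sign under any of them. Leaving out 1 library at a time gave 3 to 9 members higher in the Ctrl-labelled libraries and 1 to 6 higher in the cKO-labelled ones, against 11 and 6. The lowest counts came without cKO 1 or cKO 3, and 11 of the 17 calls were lost in 4 or more of the 6 such fits. With a fold over 2 these fits gave 1 to 2 (Ctrl side, against 3) and 0 to 1 (cKO side, against 0). For the genes of the 8 lists they gave 7 to 20 (Ctrl side, against 19) and 7 to 18 (cKO side, against 17). Total counts in place of TMM gave 22 and 1 members, 5 with a fold over 2 on the Ctrl side, and 52 and 8 genes of the lists. Dynll2, Tuba4a, Kif3c, Kif26b and Tubg1 lost their calls there (Dynll2 adjusted p = 0.161). DESeq2 called 1 member, Tubg2, with a fold over 2 on the cKO side. The mouse number as a block gave 4 and 2 members and 8 and 10 genes of the lists. Deviations from the group means of same-numbered libraries had correlations of 0.084, -0.215 and -0.002, against -0.217 to 0.194 between differently numbered ones. With 3 libraries a group, these correlations cannot decide whether the numbers pair the mice.

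Signs turned for 11 of the uncalled members given with values above and for the called list gene Rhot1. Uncalled kinesins given no values above were not checked for this. With total counts the log2 fold changes were -0.18 for Dync1i2, -0.21 for Dynlt3, -0.11 for Dync1li1, -0.067 for Kif1b, -0.25 for Kif13a, -0.19 for Kif16b, -0.0013 for Tuba8 and -0.013 for Rhot1. With 1 library left out at a time, log2 fold changes ranged from -0.013 to 0.10 for Dynlt3, -0.27 to 0.12 for Dynlt1f, -0.20 to 0.058 for Dync2li1, -0.036 to 0.033 for Kif13a, -0.13 to 0.12 for Kif5b and -0.89 to 0.21 for Tubb3. The cause of these moves was not tested, apart from the shift of all genes with total counts. Counts of about 1 CPM or less, as for the spindle kinesins, limit what 3 mice a group can show.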
